A study of Homo sapiens with 14 samples.

Results

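Kasumi-1 cells nucleofected with an siRNA against AML1-ETO were compared with Kasumi-1 cells that had not been transfected, which gives the net state of the knockdown cells against undisturbed ones. The comparison was defined by the sample titles and took 5 of the 14 arrays of the series, 3 from nucleofected and 2 from untransfected cells. Kasumi-1 is an established line of human acute myeloid leukaemia that carries the AML1-ETO fusion. All cells were in culture for 96 h, and the siRNA was given at 1.5 µM by Amaxa nucleofection, an electrical transfection. The untransfected cells received neither siRNA nor current, so the siRNA, its target and the nucleofection differ together between the groups and cannot be told apart from this comparison alone. For the same genes, values are therefore set beside those of cells nucleofected with a luciferase siRNA at 1.5 µM (2 arrays), of cells nucleofected without siRNA (1 array), and of cells given the AML1-ETO siRNA at 240 nM by a lipid reagent (3 arrays). Untransfected replicate 2 was not analysed here. All groups come from 1 cell line, and the labels do not say whether replicates were separate cultures, so that p-values measure only the spread between arrays.

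AML1-ETO joins the DNA-binding part of the transcription factor RUNX1 to nearly all of the corepressor RUNX1T1, also called ETO. The fusion protein sits at RUNX1 sites and recruits histone deacetylases through its RUNX1T1 part, and it is known for holding myeloid cells at an immature stage. Genes of granulocyte and monocyte maturation, such as granule proteases and surface receptors, are among those that the fusion is known to keep low. Loss of the fusion in leukaemia cells that carry it is known to relieve part of that block.

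Each array reported 22283 probe sets of a 3′ expression array as a signal, an intensity scaled so that every array had a mean of 138.5. Signals below 20 were raised to 20, which applied to 40.5% to 44.3% of the probe sets of the 5 arrays, and differences are given on the log2 scale. A dim gene therefore has an understated difference, and where no array of a group exceeded 20 the difference is a bound, written as "at least". The 13329 brightest non-control probe sets over all arrays (the upper 60%) were tested with limma, and "called" means a Benjamini-Hochberg adjusted p under 0.05. A gene was represented by its brightest probe set, which gave 8130 genes. Of the markers set for the line, MPO, the granule peroxidase, had a signal of 7311 ± 231 (SD, n = 3) in nucleofected and 6523 ± 763 (SD, n = 2) in untransfected cells, and KIT, a growth factor receptor, had 1922 ± 195 and 2174 ± 173. SPI1, the myeloid factor PU.1, had 119 ± 10.7 and 145 ± 24.1. Of 29 lymphoid genes on the array 10 were at or under 20 on all 5 arrays, among them CD3G, CD79B and RAG1, and the summed lymphoid signal was 717 to 895 in nucleofected and 810 to 1006 in untransfected cells. Erythroid and megakaryocytic genes summed to 2163 to 2417 and 3044 to 3270, with 7 of 24 at or under 20 throughout, among them KLF1 and ALAS2. Genes of tissues outside the blood summed to 620 to 720 and 762 to 841, with 9 of 29 at or under 20 throughout. Mast cell, eosinophil and basophil genes summed to 1937 to 2393 and 2326 to 2506, with FCER1A at or under 20 throughout. Most of that sum was KIT, which is also on this list. Most of the erythroid and megakaryocytic sum was TFRC, the transferrin receptor, with 1382, 1404 and 1202 in nucleofected and 2013 and 2272 in untransfected cells. Signal on the ribosomal RNA control probe sets was higher after nucleofection. Its mean log2 value was 7.39, 6.75 and 8.79 in the nucleofected cells with AML1-ETO siRNA against 5.39 and 5.94 in untransfected cells, a difference of 1.98 (exact two-sided permutation test, p = 0.2, where 3 against 2 arrays cannot go below 0.1). It was 7.61 to 10.01 with luciferase siRNA, 10.62 without siRNA and 4.7 to 5.82 after lipid. The authors' scale factors were 1.24, 0.96 and 1.56 against 0.57 and 1. The ACTB 3′ to 5′ log2 ratio, a sign of RNA quality, was 0.29, 0.46 and 0.41 against 0.66 and 0.5 without overlap (exact two-sided permutation test, p = 0.1). The GAPDH ratio was -0.18, -0.13 and -0.11 against -0.19 and -0.21, also without overlap (exact two-sided permutation test, p = 0.2). The part of the ACTB ratio in the results was not tested, and for the other 3 it was tested only by fits that hold each as a covariate, whose calls are given with the counts.

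The targeted transcript was lower after nucleofection of its siRNA. RUNX1T1 has 4 probe sets, all in the RUNX1T1 part, and none of them separates the fusion from a normal RUNX1T1 transcript. On the brightest, 205529_s_at, the signals were 318, 328 and 251 with AML1-ETO siRNA and 619 and 514 in untransfected cells. They did not overlap, and the difference was -0.92 ± 0.15 on the log2 scale (SE; limma without the filter on dim probe sets, adjusted p = 0.00809). Cells nucleofected with luciferase siRNA had 644 and 763, and the difference between the 2 siRNAs was -1.24 (adjusted p = 0.00308). The array without siRNA had 582. Probe set 205528_s_at read 76.3, 113 and 95.1 against 187 and 213, a difference of -1.09 ± 0.19 (limma, adjusted p = 0.0128). Probe set 216831_s_at read 15.9, 9.44 and 8.12, all under the floor, against 54.3 and 68.8, which is at least 3.06-fold lower (limma, adjusted p = 0.00209). The fourth, 216832_at, read 92.1, 95.8 and 72.4 against 118 and 111 and was not called (-0.41 ± 0.19, limma, adjusted p = 0.26). Without untransfected replicate 1 the calls on 205529_s_at (-0.79, limma, adjusted p = 0.139) and 205528_s_at (-1.19, limma, adjusted p = 0.0672) were lost, and the latter was lost without untransfected replicate 3 as well (-1, limma, adjusted p = 0.0923). With lipid delivery the brightest probe set read 400, 426 and 502, between the levels of nucleofected and untransfected cells.

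Across the array, 835 of 13329 probe sets were called, or 6.26%, with 222 higher (1.67%) and 613 lower (4.6%) in the nucleofected cells. Of 8130 genes, 483 were called (5.94%), 115 higher (1.41%) and 368 lower (4.53%). Each of these 483 genes had arrays that did not overlap between the groups, which held for 3371 genes or 41.5% of all tested. The excess of lower calls depends on how the arrays are put on a common scale. With the signals as deposited the median difference over all probe sets was -0.12 and 26.6% of the called probe sets were higher. After quantile normalization the median was -0.01 and 49.7% of 590 called were higher. After centring each array on its median it was 0.05 and 57.3% of 682 were higher. For genes, quantile normalization called 2.08% higher and 1.99% lower, and centring called 2.74% higher and 2.1% lower. A general fall is therefore not described here, and where a gene group's counts differ under the other 2 scalings, those counts stand beside it. Leaving out 1 array lowered the count of called probe sets to 146 without untransfected replicate 1, 192 without untransfected replicate 3, 427 without AML1-ETO replicate 1 and 380 without AML1-ETO replicate 3, and to 614 without AML1-ETO replicate 2. The counts of genes without these arrays were 86, 118, 248, 220 and 349. With the ribosomal RNA level as a covariate, 137 probe sets and 83 genes were called, 299 and 174 with the scale factor in its place, and 568 and 325 with the GAPDH ratio.

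**Figure D1:**
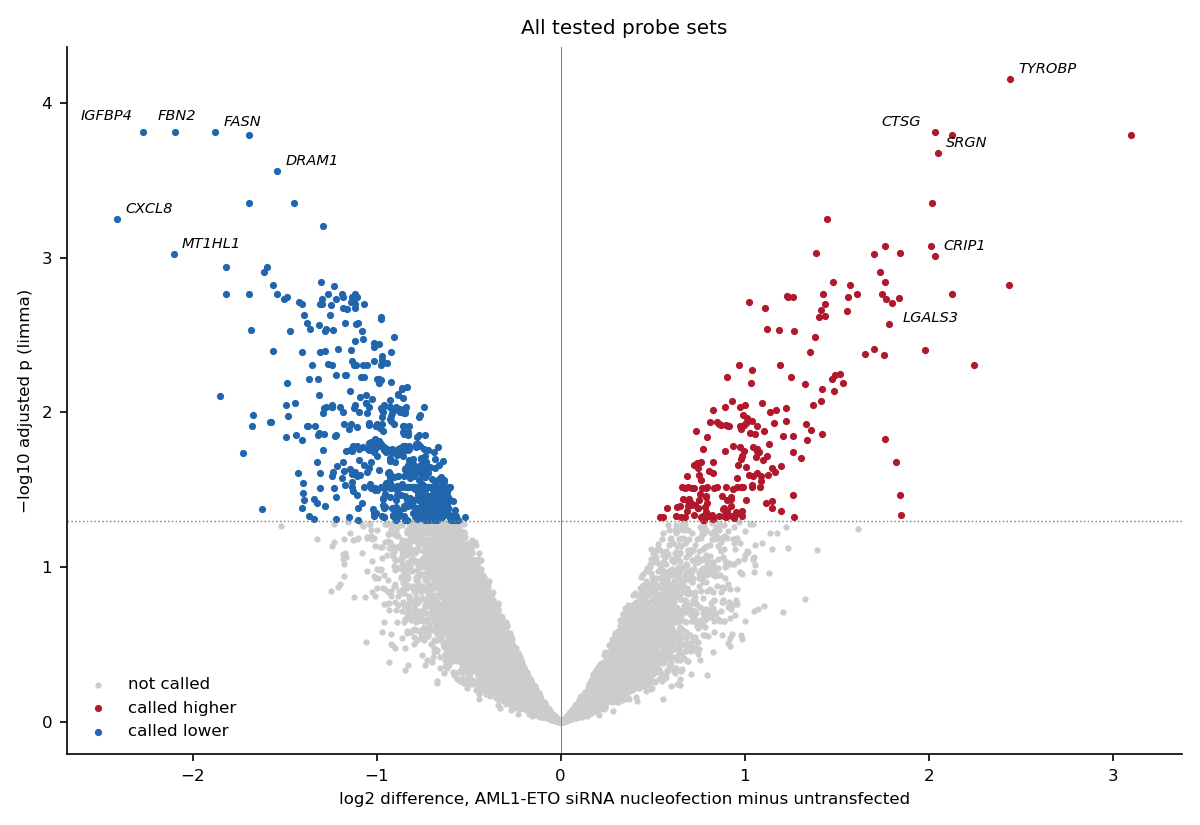
Log2 difference between AML1-ETO siRNA nucleofection and untransfected cells (x axis) against the −log10 adjusted p of limma (y axis) for the 13329 tested probe sets, with the 222 called higher in red and the 613 called lower in blue. TYROBP and CTSG stand at the upper right and CXCL8, IGFBP4, FBN2 and FASN at the upper left, and the dotted line is the threshold of 0.05.

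**Figure D2:**
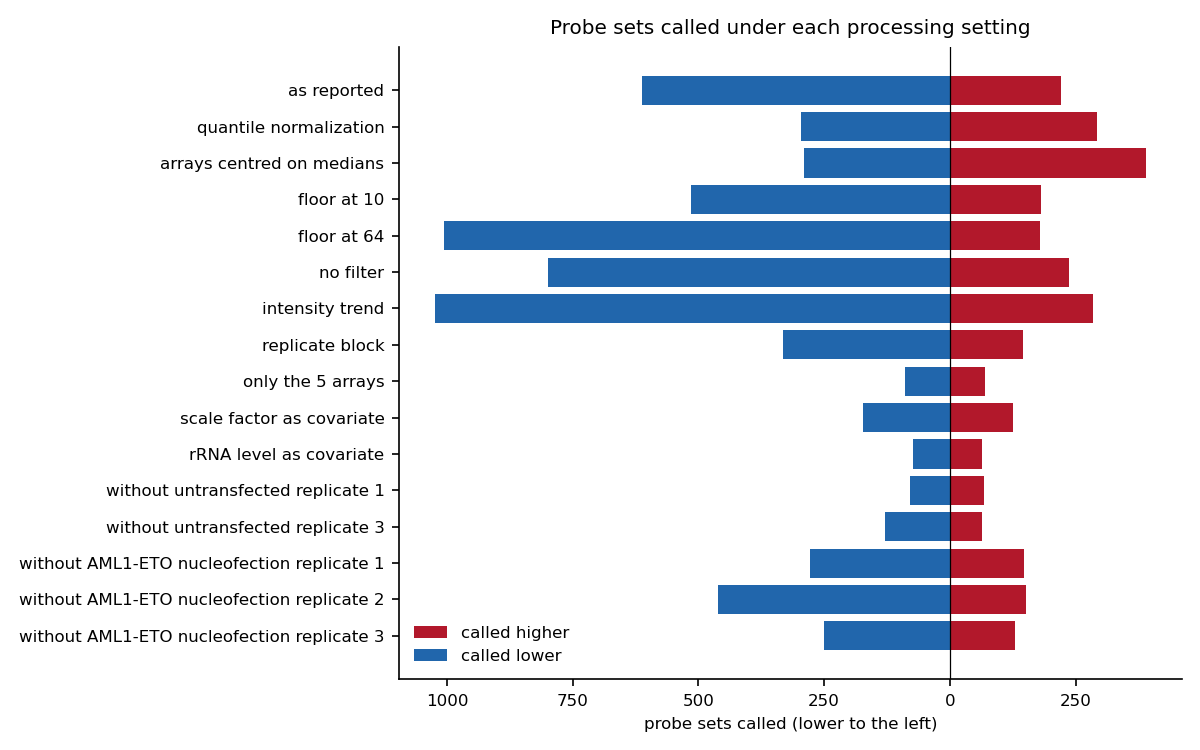
Number of probe sets called higher (red, to the right) and lower (blue, to the left) under 16 processing settings. The bars as reported show 222 higher and 613 lower, while quantile normalization shows 293 and 297, and the 2 settings that leave out an untransfected array show 146 and 192 calls in all.

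Among the 20 called genes with the largest positive differences, 5 were on the granule list, 2 on the neutrophil maturation list and 3 on the monocyte list, and the others on none of these. These lists held 15, 21 and 19 of the 8130 genes tested. They were chosen with earlier results of these data known, so the counts are not a test. The differences of the 20 genes lay between 1.48 and 2.44 on the log2 scale, 7 of them bounds set by the floor. Among all genes, 2.09% differed between the 2 nucleofected groups and 4.58% between luciferase nucleofection and untransfected cells. Of the 20, 17 also differed between AML1-ETO and luciferase siRNA by nucleofection in the same direction. Only PTPRC was called higher after luciferase nucleofection against untransfected cells, and CTSG, SRGN, CST7 and IGFBP7 were called lower there. The median of the 20 was 1.76 with AML1-ETO siRNA by nucleofection, 0.02 with luciferase siRNA by nucleofection and 0.78 with AML1-ETO siRNA by lipid, where 18 had a positive difference and 5 were called. These comparisons share the untransfected arrays, or the AML1-ETO arrays, and are set side by side for that reason only. The 20 were chosen by their rise on the AML1-ETO arrays over the same untransfected arrays, so these differences are not independent of that choice.

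TYROBP, the ITAM adaptor also called DAP12 that signals for many myeloid receptors, had the largest difference. Its signals were 126, 94.4 and 108 with AML1-ETO siRNA and 11.8 and 15 in untransfected cells, the latter under the floor. The groups were far apart, and TYROBP was at least 5.43-fold higher (2.44 ± 0.18 on the log2 scale, SE, limma, adjusted p = 7.04e-05). Luciferase nucleofection gave 26.1 and 20.6, no siRNA gave 19.4, and the AML1-ETO siRNA by lipid gave 41.5, 49.8 and 47.1, so that every AML1-ETO siRNA array stood above every other array named here. CAPG, a capping protein of actin filaments in phagocytes, read 68.1, 68.8 and 67 against 13 and 17.9 (at least 3.4-fold higher). CRIP1, a small zinc-binding LIM protein, read 62.5, 88.7 and 99.7 against 7.42 and 9.2 (at least 4.1-fold higher, limma, adjusted p = 0.000982). Outside the AML1-ETO nucleofection arrays, CRIP1 exceeded 20 only on a single AML1-ETO lipid array and on the array without siRNA (29.7). It therefore passed the brightness filter largely through the group where it is high. It was also called in the fit without that filter. CRIP1 differs from TYROBP in the lipid arrays, where it read 6.37, 13.5 and 34.9 and was not called (0.27, limma, adjusted p = 1). IL6R, the interleukin-6 receptor, and PTPN22, a phosphatase of leukocyte signalling, were 1.65 and 1.7 higher on the log2 scale. With luciferase siRNA IL6R read 23.8 and 9.32 against 13.1 and 24.1, and PTPN22 read 3.51 and 18.2, both under the floor, against 27.5 and 18.6. LGALS3, the macrophage lectin galectin-3, was at least 3.48-fold higher, and with luciferase siRNA it was 0.84 higher without a call (limma, adjusted p = 0.102). Its difference between the 2 siRNAs was 0.96 and not called (limma, adjusted p = 0.0765). LGALS3 read 9.48 and 7.9 in untransfected cells, 33.3 without siRNA, and 33.3, 34.1 and 18.7 with luciferase siRNA by lipid. With AML1-ETO siRNA by lipid it read 29.1, 36.9 and 23.7. Its net call was lost with the ribosomal RNA level as a covariate.

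The granule genes CTSG, SRGN and CST7 were called higher than in untransfected cells with AML1-ETO siRNA and lower with luciferase siRNA. CTSG encodes cathepsin G, a serine protease of azurophil granules. It read 5903, 5550 and 5705 with AML1-ETO siRNA, 1731 and 1121 in untransfected cells, 419 and 423 after luciferase nucleofection and 537 without siRNA. The 3 nucleofected conditions thus lay on both sides of the untransfected cells, with AML1-ETO siRNA 2.04 ± 0.18 above (SE, limma, adjusted p = 0.000156) and luciferase siRNA 1.73 below on the log2 scale. The difference between the 2 siRNAs was 3.76, larger than the net difference from untransfected cells. SRGN, the proteoglycan serglycin that packs granule proteases, read 4366, 3848 and 3652 against 1123 and 810 in untransfected cells and 474 and 509 after luciferase nucleofection. CST7, cystatin F, an inhibitor of cathepsins, read 144, 167 and 154 against 50.9 and 36.5, with 20.5 and 8.71 after luciferase nucleofection. RNASE2, the eosinophil-derived ribonuclease, read 1501, 1536 and 1296 against 507 and 527, and 278 and 401 after luciferase nucleofection, where the fall did not pass the test (limma, adjusted p = 0.0975). RNASE2CP, annotated as a pseudogene related to RNASE2 whose probe set may take signal from it, was 1.76 higher. MS4A3, a tetraspan protein of granulocyte precursors, was at least 2.8-fold higher, from 58.6, 71.5 and 42 against 16.4 and 5.1. It exceeded 20 only on arrays with AML1-ETO siRNA, so it passed the brightness filter through the groups where it is high. MS4A3 reached 138, 84.1 and 166 with the lipid-delivered siRNA, and S100A8, one chain of the phagocyte protein calprotectin, read 40.6, 80.8 and 57.4 by nucleofection and 69.1, 80.6 and 94.5 by lipid. The highest of all tested probe sets, 205557_at, belonged to more than 1 gene in the annotation and is not named. It read 542, 539 and 412 against 64.7 and 51.2, a difference of 3.1 ± 0.29 (SE, limma, adjusted p = 0.000161), with 7.85 and 7.18 after luciferase nucleofection.

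Among the surface and secreted proteins, IGFBP7, a secreted binding protein of insulin-like growth factors, lay on the same sides of untransfected cells as CTSG. It read 1086, 1150 and 1044 with AML1-ETO siRNA against 371 and 304 in untransfected cells, 127 and 187 after luciferase nucleofection and 76.9 without siRNA, and its second probe set gave 1.77 against 1.7 for the first. CEACAM6, an adhesion molecule of maturing granulocytes, rose by 1.78 and by 2.02 on its 2 probe sets. JAG1, a ligand of Notch receptors, rose by 1.84 and 2.02. SELPLG, the selectin ligand PSGL-1, read 150, 129 and 160 against 59.3 and 31.1, and ATP2B4, a plasma membrane calcium pump, read 288, 305 and 271 against 97.6 and 96.1. PTPRC, the leukocyte phosphatase CD45, took another course. It read 292, 385 and 254 with AML1-ETO siRNA, 84.5 and 98.5 in untransfected cells, 154 and 226 after luciferase nucleofection, 139 without siRNA and 88.2, 78.3 and 104 with lipid. All nucleofected arrays were thus above the untransfected ones, and the difference between the 2 siRNAs was not called (0.71, limma, adjusted p = 0.144). SPDEF, an epithelial transcription factor, was the least secure of the 20, with 71.1, 95 and 55.1 against 11.8 and 16.8 (limma, adjusted p = 0.0463). Its call was lost in 14 of 21 alternatives, and its other 2 tested probe sets did not differ in the same way (-0.07 and a value that rounds to 0). Without untransfected replicate 1, SPDEF, IL6R, S100A8 and MS4A3 lost their calls, and without untransfected replicate 3 SPDEF, SELPLG, PTPN22, S100A8 and MS4A3 did. SPDEF also lost it without each AML1-ETO replicate, and SELPLG without AML1-ETO replicate 3. Over all of these genes, 11 other probe sets were tested, of which 9 had the same sign and 6 were called.

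**Figure D3:**
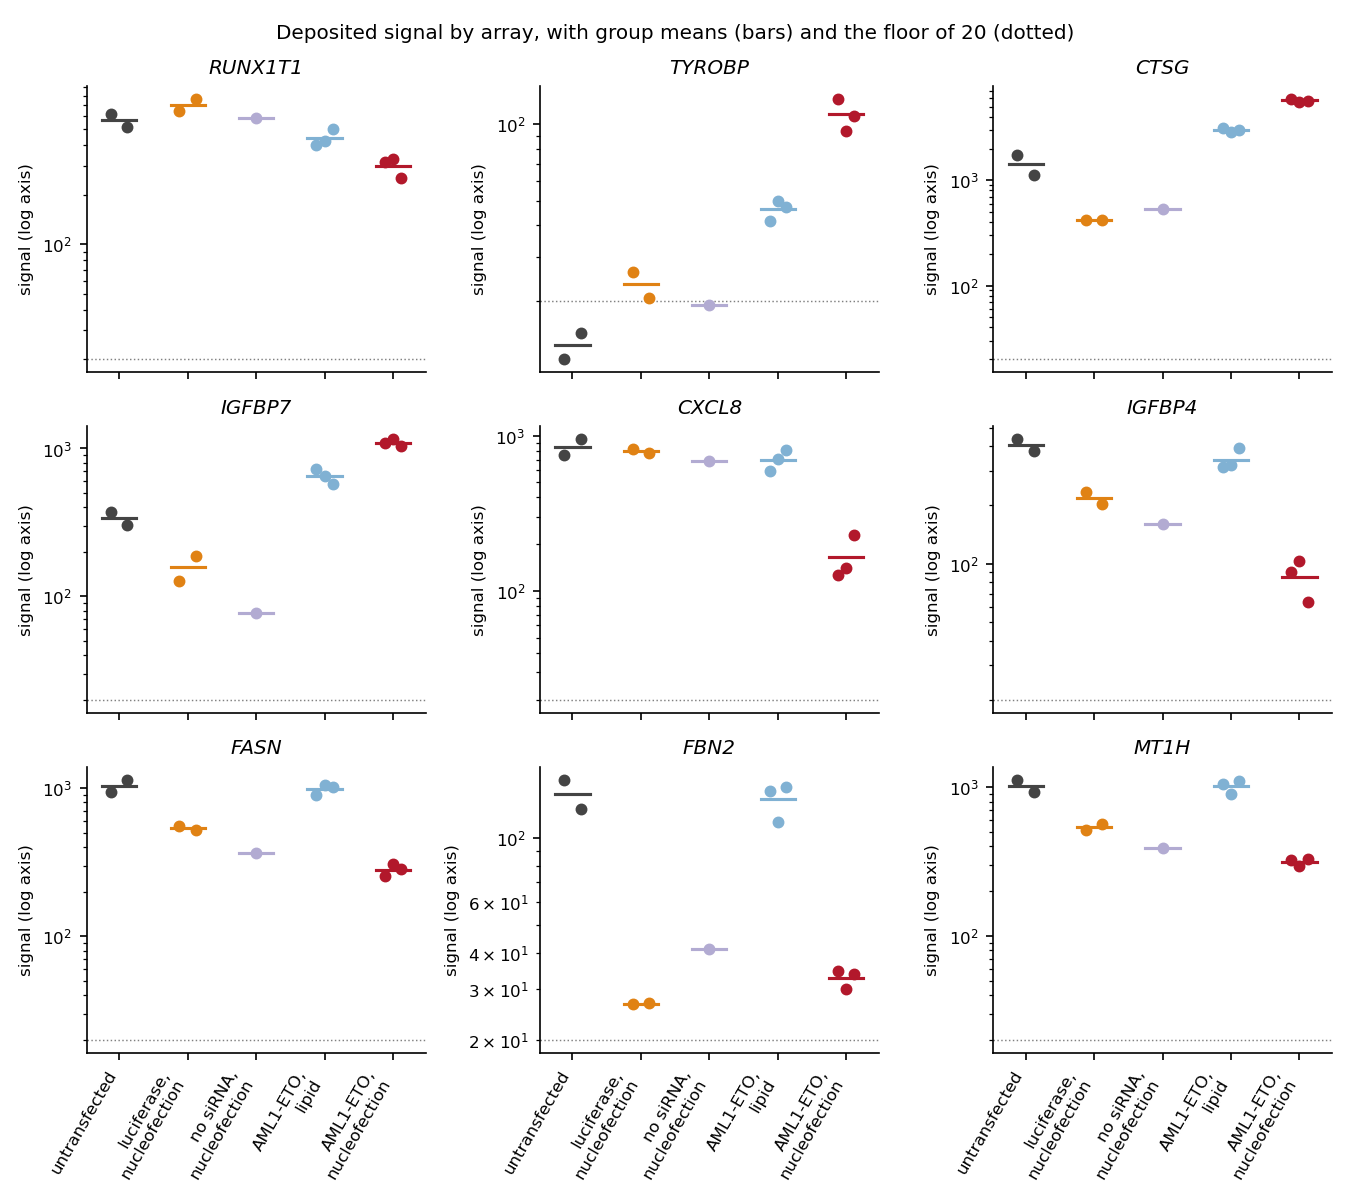
Deposited signal (log axis) of 9 genes on each array of 5 groups, with the group mean as a bar and the floor of 20 as a dotted line. CTSG and IGFBP7 lie above untransfected cells with AML1-ETO siRNA and below them after the other nucleofections, CXCL8 is low with AML1-ETO siRNA by nucleofection alone among the groups drawn, and FBN2 is low on all 6 nucleofection arrays.

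The 20 called genes with the largest negative differences lay between -2.41 and -1.42, 4 of them bounds set by the floor. After luciferase nucleofection 14 of them were also called lower than untransfected cells, and 6 differed between the 2 siRNAs, namely CXCL8, IGFBP4, FASN, MT1H, DRAM1 and PIK3C2B. Among all genes, 4.58% and 2.09% were called in these comparisons, in either direction. The 20 were chosen by the fall of the AML1-ETO arrays from the same untransfected arrays. The luciferase and lipid differences, and those between the siRNAs, are therefore not independent of that choice. The median of the 20 was -1.67 with AML1-ETO siRNA by nucleofection, -0.94 with luciferase siRNA by nucleofection and -0.27 with AML1-ETO siRNA by lipid, where 0 were called by limma and 18 had a negative difference.

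CXCL8, the neutrophil chemokine interleukin-8, read 126, 140 and 228 with AML1-ETO siRNA and 755 and 944 in untransfected cells. The groups did not overlap, and CXCL8 was 5.31-fold lower (-2.41 ± 0.27, SE, limma, adjusted p = 0.000565), with -1.7 on its second probe set. It read 821 and 769 after luciferase nucleofection, 684 without siRNA and 589, 704 and 811 with the AML1-ETO siRNA by lipid, so that every array of these other groups read 589 or more. The difference between the 2 siRNAs was -2.32 (limma, adjusted p = 0.000477). PIK3C2B, a class II phosphoinositide kinase, read 12.9, 15.6 and 12.6 against 64.8 and 44.7 (at least 2.69-fold lower), and 93.1 and 32.4 after luciferase nucleofection. By lipid it read 20.2, 11.7 and 25.9 with AML1-ETO siRNA and 19.2, 21.9 and 17.8 with luciferase siRNA. It was thus near or under the floor in every group but untransfected cells and luciferase nucleofection. The array without siRNA read 12.5 for PIK3C2B, its call was lost in 10 of 21 alternatives, and it was lost without any 1 of the 5 arrays.

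IGFBP4, FASN, MT1H and DRAM1 were lower after both nucleofections and lower still with AML1-ETO siRNA. IGFBP4, a secreted binding protein of insulin-like growth factors, read 91, 103 and 63.4 against 434 and 377, and 232 and 202 after luciferase nucleofection. That is 4.82-fold below untransfected cells (-2.27 ± 0.21, SE, limma, adjusted p = 0.000156) and -1.36 from luciferase siRNA (limma, adjusted p = 0.00407). FASN, fatty acid synthase, read 254, 305 and 285 against 939 and 1132, and 552 and 520 after luciferase nucleofection. DRAM1, a lysosomal membrane protein of autophagy, read 58.3, 56.5 and 56.5 against 156 and 176, and 118 and 95.9 after luciferase nucleofection. The single array without siRNA stood closer to AML1-ETO siRNA than the luciferase arrays did for these genes, with 160 for IGFBP4, 364 for FASN, 393 for MT1H and 80 for DRAM1.

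Most of the other genes were lower in both nucleofected groups without a call between the 2 siRNAs. FBN2, the microfibril protein fibrillin-2, read 34.6, 30 and 33.9 with AML1-ETO siRNA, 26.6 and 26.9 with luciferase siRNA and 41.3 without siRNA, against 158 and 125 in untransfected cells and 145, 113 and 150 with lipid. EGFL7, a secreted protein with EGF-like repeats, and OGDHL, a homologue of a subunit of oxoglutarate dehydrogenase, were under the floor on all AML1-ETO nucleofection arrays and each at least 3.52-fold lower. CYTL1, a small secreted cytokine-like protein, was at least 3.18-fold lower, and both nucleofected groups were under the floor. SERPINH1, the collagen chaperone HSP47, differed by -1.68 and by -1.87 with luciferase siRNA. SLC39A4, a zinc importer, differed by -1.69 and -1.46, and ABCG1, a sterol exporter, by -1.45 and -1.35. LBR, the lamin B receptor, read 261, 389 and 321 against 928 and 931, and 558 and 536 with luciferase siRNA, where it was not called (limma, adjusted p = 0.0745). CDKN2A, a cell cycle inhibitor locus, was -1.56 on a probe set that can take related transcripts and -0.1 on its other one. Without untransfected replicate 1 CYTL1, WBP2, ENAH and PIK3C2B lost their calls, and without replicate 3 SERPINH1, CYTL1, WBP2, ABCG1 and PIK3C2B did. When the array without siRNA was pooled with the untransfected controls, 14 of the 20 lowest genes lost their calls but only 1 of the 20 highest, SPDEF.

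**Figure D4:**
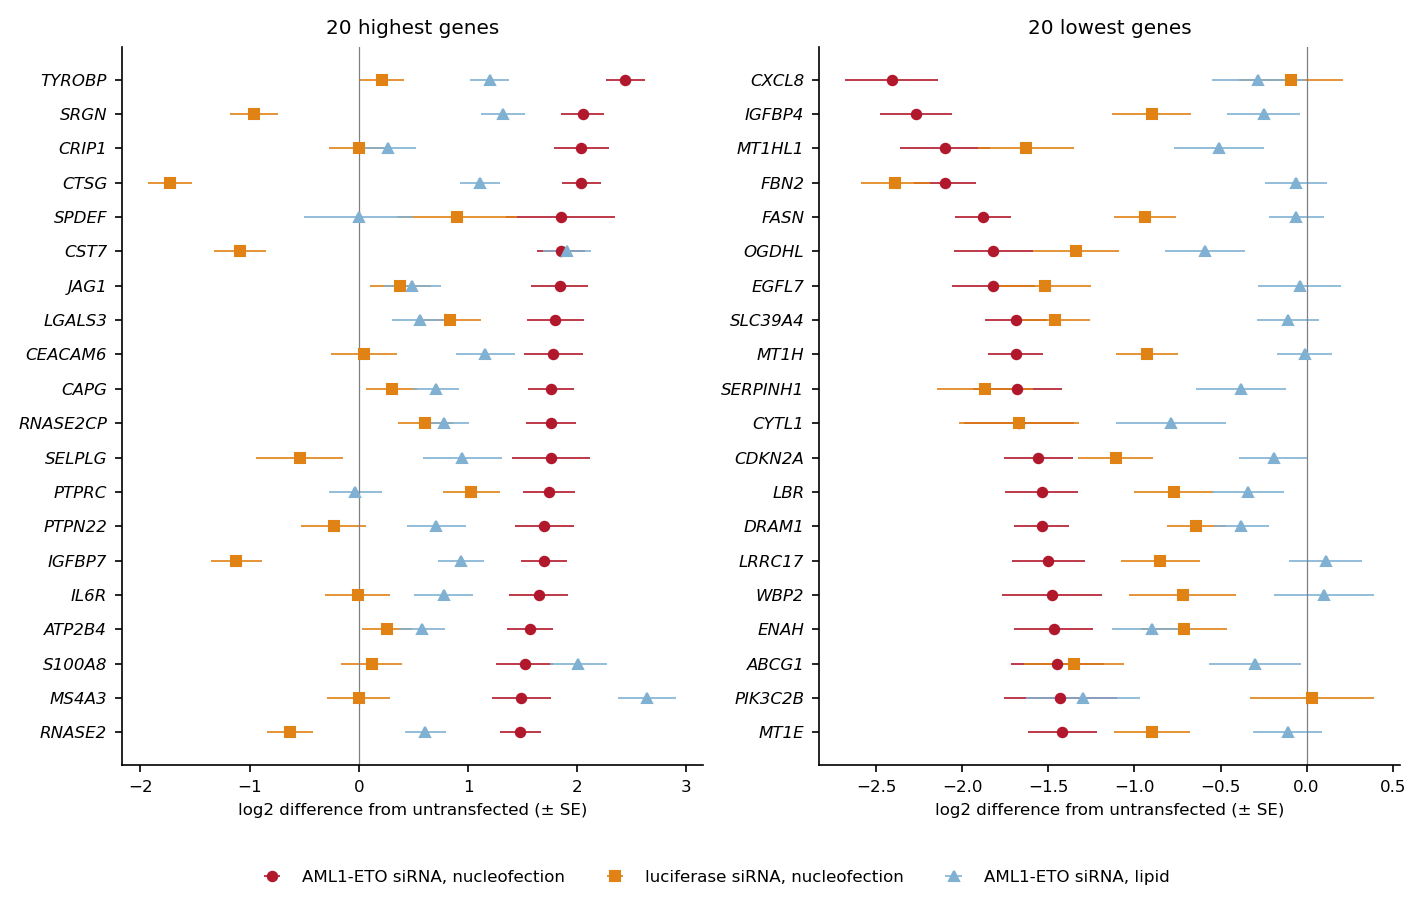
Log2 difference from untransfected cells with its standard error (x axis) for the 20 highest and 20 lowest genes, for AML1-ETO siRNA by nucleofection (red circles), luciferase siRNA by nucleofection (orange squares) and AML1-ETO siRNA by lipid (blue triangles). Among the highest genes the luciferase values centre near 0 (median 0.02) and CTSG reaches -1.73, while among the lowest they follow below 0 (median -0.94) and the lipid values stay closer to 0 (median -0.27).

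The promoters of leading genes are shown because sets of genes moved together and the fusion binds DNA through its RUNX1 part. Each is RefSeq sequence on GRCh38.p14, 250 bases before to 50 after the gene's start, read 5′ to 3′ on the gene's strand. Capitals mark matches on either strand to a RUNX core (TGTGGT), a PU.1 core (GAGGAA), an AP-1 site (TGANTCA) or a metal response core (TGCGCNC or TGCACNC, the site of the zinc sensor MTF1). No 2 matches overlapped in the sequences shown. Of the 3 highest genes with an entry in the table used, TYROBP lies at chr19:35908246-35908545 on the minus strand, CRIP1 at chr14:105486636-105486935 on the plus strand and CTSG at chr14:24576201-24576500 on the minus strand.
TYROBP: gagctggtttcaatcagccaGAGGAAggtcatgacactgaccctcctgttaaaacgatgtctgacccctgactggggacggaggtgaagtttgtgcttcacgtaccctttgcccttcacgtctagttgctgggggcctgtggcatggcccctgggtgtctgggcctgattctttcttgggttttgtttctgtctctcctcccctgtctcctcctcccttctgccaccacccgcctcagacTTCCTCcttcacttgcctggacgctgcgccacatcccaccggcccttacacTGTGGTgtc
CRIP1: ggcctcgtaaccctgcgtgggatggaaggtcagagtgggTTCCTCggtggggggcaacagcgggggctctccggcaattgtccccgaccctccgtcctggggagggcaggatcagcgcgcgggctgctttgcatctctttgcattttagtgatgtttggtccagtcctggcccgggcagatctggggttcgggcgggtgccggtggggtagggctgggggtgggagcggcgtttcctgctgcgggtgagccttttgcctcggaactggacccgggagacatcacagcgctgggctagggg
CTSG: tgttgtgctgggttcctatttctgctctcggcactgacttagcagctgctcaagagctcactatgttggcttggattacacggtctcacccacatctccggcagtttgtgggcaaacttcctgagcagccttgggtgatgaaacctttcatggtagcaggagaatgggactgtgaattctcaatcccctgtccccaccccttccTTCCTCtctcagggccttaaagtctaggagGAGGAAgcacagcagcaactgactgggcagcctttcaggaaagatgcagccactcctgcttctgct
TYROBP has PU.1 matches that begin 230 and 10 bases before the start and a RUNX match 42 bases after it, CRIP1 a PU.1 match 211 bases before, and CTSG PU.1 matches 46 and 16 bases before. SRGN was not in the table.

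Of the lowest genes, CXCL8 lies at chr4:73740319-73740618 on the plus strand, IGFBP4 at chr17:40443200-40443499 on the plus strand and FBN2 at chr5:128538196-128538495 on the minus strand. MT1H, at chr16:56669564-56669863 on the plus strand, was added after its values were seen because 6 genes of its list were called lower.
CXCL8: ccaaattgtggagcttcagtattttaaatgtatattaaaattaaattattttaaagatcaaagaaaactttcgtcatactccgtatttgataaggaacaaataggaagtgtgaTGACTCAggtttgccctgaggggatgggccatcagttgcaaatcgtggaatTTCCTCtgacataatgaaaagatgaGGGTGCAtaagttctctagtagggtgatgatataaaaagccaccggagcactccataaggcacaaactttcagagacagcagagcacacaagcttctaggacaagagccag
IGFBP4: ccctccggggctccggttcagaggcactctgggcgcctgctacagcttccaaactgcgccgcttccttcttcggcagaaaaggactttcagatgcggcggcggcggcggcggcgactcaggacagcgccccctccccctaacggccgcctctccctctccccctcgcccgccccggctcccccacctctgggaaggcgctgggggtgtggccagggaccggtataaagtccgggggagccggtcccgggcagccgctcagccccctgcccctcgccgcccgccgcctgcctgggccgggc
FBN2: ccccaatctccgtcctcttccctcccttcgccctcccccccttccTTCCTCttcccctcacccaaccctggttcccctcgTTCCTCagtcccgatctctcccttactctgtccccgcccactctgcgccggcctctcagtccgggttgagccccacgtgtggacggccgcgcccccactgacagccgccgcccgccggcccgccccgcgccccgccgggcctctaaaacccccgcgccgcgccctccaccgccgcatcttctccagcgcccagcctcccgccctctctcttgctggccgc
MT1H: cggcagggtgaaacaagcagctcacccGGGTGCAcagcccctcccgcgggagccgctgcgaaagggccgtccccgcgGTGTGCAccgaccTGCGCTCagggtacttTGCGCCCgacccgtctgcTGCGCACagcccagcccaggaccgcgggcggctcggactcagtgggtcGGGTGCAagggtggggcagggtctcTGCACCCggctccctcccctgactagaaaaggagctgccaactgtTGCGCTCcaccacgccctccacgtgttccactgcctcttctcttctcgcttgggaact
CXCL8 has an AP-1 match that begins 137 bases before the start, a PU.1 match 86 and a metal response match 61 bases before it. MT1H has 8 metal response matches, FBN2 has 2 PU.1 matches and IGFBP4 has none of the motifs. Of the 20 highest genes 15 had a promoter in the table, and 10 of these held a PU.1 core (66.7%) and 3 a RUNX core (20%). Of 15 among the 20 lowest, 6 held a PU.1 core (40%), 2 a RUNX core (13.3%) and 5 a metal response core (33.3%). Among all 35116 promoters of this length, 27.9% held the PU.1 core, 13.1% the RUNX core, 7.71% the AP-1 site and 29.6% either metal response core. These are matches of letters in a short window, and no test was made on them.

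Gene groups were read against the share of all genes called, 1.41% higher and 4.53% lower. The lists were chosen with earlier results of these data known, so their counts describe members and are not a test of a group. Monocyte and macrophage genes had calls on the higher side only, with 6 of 19 tested members called higher and 0 lower, a median of 0.4, and 15 of 19 above 0. Besides TYROBP, LGALS3 and S100A8 these were AIF1, a calcium-binding protein of macrophages, LST1, a leukocyte membrane protein, and IRF8, the monocyte transcription factor. AIF1 read 777, 787 and 713 against 408 and 270 (1.19, limma, adjusted p = 0.00497). IRF8 was dim, with 60.9, 43.9 and 48.4 against 29.3 and 25 (0.9, limma, adjusted p = 0.0433). Its call was lost in 17 of 20 alternatives, quantile normalization among them. The difference of IRF8 between the 2 siRNAs was not called (limma, adjusted p = 0.0581). LST1 read 181, 153 and 157 against 82.5 and 67, and 5 of its 6 tested probe sets were called, with differences from 1.14 to 1.98. The count was 5 after quantile normalization and 6 after centring, and it was 3 without untransfected replicate 1, 2 without untransfected replicate 3 and 3 with the ribosomal RNA level as a covariate. CD14, CD163, FCGR1A and MRC1, which define mature monocytes and macrophages, were at or under the floor on all 5 arrays with 4 others of the 29 listed. The summed signal of the list was 2555 to 2716 in nucleofected and 1629 to 1702 in untransfected cells. In bulk RNA, more cells of a type and more RNA per cell cannot be told apart.

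Of 15 granule protein genes, 5 were called higher and 2 lower, PRTN3 and CTSC, with a median of 0.17. PRTN3, the azurophil protease proteinase 3, read 1832, 2199 and 1809 against 3115 and 3400 (-0.75, limma, adjusted p = 0.0323), opposite in sign to CTSG of the same granules. Its difference after luciferase nucleofection was -1.19, and CTSC, the protease that activates granule serine proteases, was -0.57 and -0.72. The higher calls were 5 under quantile normalization and centring and 4 without either untransfected array. The lower calls were 1 after quantile normalization, 0 after centring and 0 without either untransfected array. Of 21 neutrophil maturation genes, CEACAM6 and SELPLG were called higher and CSF3R, the receptor of the granulocyte growth factor, lower (-1.1, limma, adjusted p = 0.0496). CSF3R read 47.9, 48.3 and 50.9 against 125 and 88, was -1.76 after luciferase nucleofection, and lost its call under both other scalings. Among 34 myeloid receptor and signalling genes 4 were called higher (TYROBP, PTPRC, PTPN22 and IL6R) and 4 lower. The lower ones were LILRA2, a leukocyte receptor, LYN, a Src family kinase, STAT3, and CSF3R. LILRA2 read 63.2, 65.7 and 59.8 against 134 and 141, and 3 of its 4 tested probe sets were called lower. Among these receptors 6 were higher and 2 lower after quantile normalization, 4 and 2 after centring, and 3 and 1 without either untransfected array.

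Of 40 lysosomal genes, LAPTM5, CTSD and SMPD1 were called higher and ATP6V0C lower, against a median of -0.05 for the list. LAPTM5, which spans the lysosomal membrane of leukocytes, read 2303, 2748 and 2551 against 835 and 1120 (1.39 ± 0.17, SE, limma, adjusted p = 0.000929), and its second probe set gave 2.13. After luciferase nucleofection LAPTM5 was -0.44, and the difference between the 2 siRNAs was 1.83 (limma, adjusted p = 6.38e-05). CTSD, cathepsin D, read 91, 118 and 109 against 58 and 45.5. The higher calls were 5 after quantile normalization, 4 after centring, and 2 and 1 without untransfected replicates 1 and 3. Of 15 MHC class I genes, HLA-B (1.12) and HLA-C (0.72) were called higher, on probe sets that can take signal from related class I genes. HLA-B read 762, 815 and 647 against 334 and 344, and all 3 of its probe sets were called. HLA-C lost its call without either untransfected array, and 3 of the list were called higher under both other scalings. Of 11 MHC class II genes, HLA-DMB was called (0.83), and it was 0.99 after luciferase nucleofection.

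**Figure D5:**
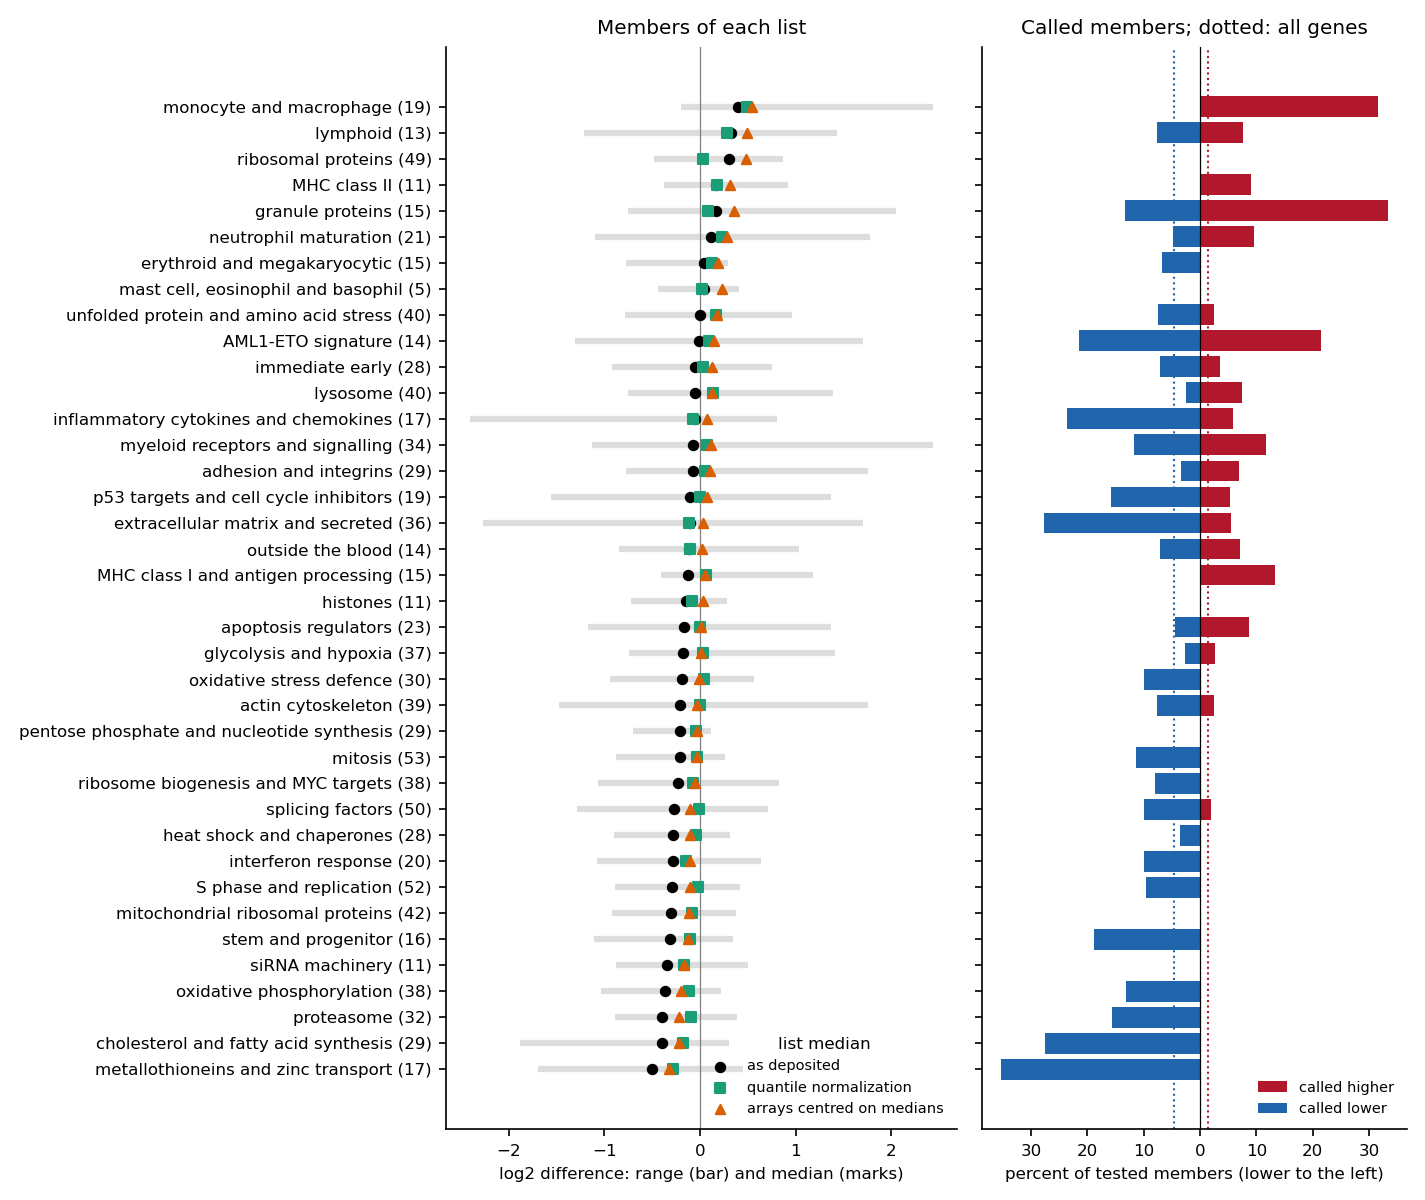
For 38 gene lists (number of tested members in parentheses), the left panel shows the range of the members' log2 differences as a bar and the list median under 3 scalings as marks. The right panel shows the percent of members called higher (red) and lower (blue), with dotted lines at 1.41% and 4.53%, the shares of all genes. Monocyte and granule lists reach furthest to the red side and metallothioneins furthest to the blue side.

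Stem and progenitor genes were lower or not called. Of 16 tested members 0 were called higher and 3 lower by limma, and 15 of 16 were below 0. The list median was -0.31, against -0.13 over all genes, and it was -0.32 after luciferase nucleofection. It was -0.1 after quantile normalization and -0.13 after centring, where the medians over all genes were -0.01 and 0.04. ERG, an ETS factor of haematopoietic stem cells, read 47.7, 52.2 and 40 against 103 and 97.4 (-1.11 ± 0.17, SE, limma, adjusted p = 0.00268). Its other 2 tested probe sets differed by -0.46 and 0.22. HHEX, a homeobox factor, read 208, 214 and 206 against 382 and 359, and CD34, the progenitor surface antigen, 29.1, 34.3 and 51 against 74.5 and 73.7. HHEX and CD34 were -0.64 and -0.61 after luciferase nucleofection, and their differences between the 2 siRNAs were not called (limma, adjusted p = 0.64 and 0.379), while that of ERG was (-0.75, limma, adjusted p = 0.04). The count of lower calls was 2 under the other 2 scalings, 1 without either untransfected array and 0 with the ribosomal RNA level as a covariate. Of 14 genes listed as known to respond to AML1-ETO, IGFBP7, RASSF2 and OGG1 were called higher and JUP, RUNX1T1 and CCND2 lower, the last as deposited but under neither other scaling. OGG1, a DNA repair glycosylase, read 34.7, 45.8 and 46.2 against 12.4 and 20 (at least 2.09-fold higher, limma, adjusted p = 0.0246). JUP, plakoglobin, read 57.3, 84.5 and 54.3 against 177 and 143, and was -1.29 after luciferase nucleofection as well. RASSF2, a RAS effector, read 69.1, 116 and 111 against 48.7 and 42.4, and was -0.02 after luciferase nucleofection. Only IGFBP7 of these 6 kept its call without untransfected replicate 1, and without untransfected replicate 3 IGFBP7, JUP and RUNX1T1 kept theirs.

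The metallothioneins MT1H, MT2A, MT1F, MT1E and MT1X and the zinc importer SLC39A4 were called lower. Metallothioneins are small cysteine-rich proteins that bind zinc and copper, and their genes are switched on by the zinc-sensing factor MTF1. Of 17 tested genes of metallothioneins and zinc transport, 0 were called higher and 6 lower by limma, with a median of -0.5, and the count of 6 was the same under both other scalings, without each of the 5 arrays in turn and with the ribosomal RNA level as a covariate. With the array without siRNA among the controls MT2A alone of the 6 kept its call, and with only the 5 arrays MT1E lost its call. MT2A read 1412, 1401 and 1123 against 3132 and 2996 (-1.23 ± 0.16, SE, limma, adjusted p = 0.00152). MT1H read 325, 295 and 328 against 1117 and 932, MT1F 198, 203 and 249 against 548 and 511, and MT1X 705, 846 and 720 against 1713 and 1664. MT1HL1, an MT1H-like gene, read 390, 529 and 321 against 2030 and 1488. The probe sets of this family end in _x_at and can take signal from one another, so these genes are not independent measurements. After luciferase nucleofection MT1H (-0.93) and MT1F (-1.4) were also called lower, while MT2A (-0.6) and MT1X (-0.66) were not (limma, adjusted p = 0.0716 and 0.0603). With lipid delivery these 4 differed by -0.1 to 0.08.

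Secreted and matrix genes were the list with the most calls. Of 36 tested members 10 were called lower and 2 higher, with a median of -0.11. Besides FBN2, IGFBP4 and EGFL7 the lower ones included SPINT2, a protease inhibitor (353 and 276 in untransfected cells, 153, 125 and 147 with AML1-ETO siRNA), SPARC, a matrix glycoprotein (437 and 308 against 165, 180 and 170), and CFD, complement factor D (286 and 194 against 111, 94.6 and 103). SPINT2, CFD, SPARC, IGFBP2, TIMP2 and CST3 were further below untransfected cells after luciferase nucleofection, with differences of -1.83, -2.13, -1.59, -1.58, -1.19 and -1.36 against -1.14, -1.2, -1.1, -1.1, -0.73 and -1. None of these 6 differed between the 2 siRNAs by limma, where the smallest adjusted p was 0.0527, for CFD. Under quantile normalization 7 were called lower, after centring 8, and 3 and 6 without untransfected replicates 1 and 3. Besides IGFBP7, FN1, the matrix protein fibronectin, was called higher (32.7, 52.2 and 44.8 against 7.65 and 4.9, at least 2.12-fold higher).

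The list of cholesterol and fatty acid synthesis, which also holds genes that are not synthesis enzymes, had calls on the lower side only. Of 29 tested members 8 were called lower and 0 higher by limma, with a median of -0.4, and 25 were below 0. SCD, the stearoyl-CoA desaturase, read 262, 292 and 316 against 609 and 777 (-1.25 ± 0.18, SE, limma, adjusted p = 0.00203). SQLE, squalene epoxidase, read 316, 361 and 334 against 643 and 501. SREBF1, the transcription factor of lipid synthesis genes, read 75.1, 85.4 and 57.1 against 142 and 136 (-0.96, limma, adjusted p = 0.0475). MYLIP, which is not an enzyme of lipid synthesis, and TM7SF2 differed by -1.03 and -1.01. Between the 2 siRNAs the difference of FASN was called, and those of the other 7 lay between -0.12 and 0.14 without a call. The lipid-delivered siRNA gave differences from -0.3 to 0.15 for the 8. The count was 4 after quantile normalization, 5 after centring, 3 without untransfected replicate 1, 2 without untransfected replicate 3 and 4 to 6 without 1 AML1-ETO array.

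Proliferation and housekeeping lists had calls on the lower side that rested on the scaling and on single arrays. Of 53 mitosis genes 6 were called lower, among them PRC1, CDC25B and STMN1, and of 52 S phase genes 5, among them POLE, ASF1B and MCM7. The mitosis count was 1 and 2 under quantile normalization and centring, and the S phase count 0 and 1, and all their medians then lay between -0.11 and -0.02 against -0.21 and -0.29 as deposited. The mitosis count was 0 without either untransfected array, and the S phase count 0 and 1. Of 38 oxidative phosphorylation genes 5 were called lower (a median of -0.37) and 0 under either other scaling. Of 32 proteasome genes 5 were called lower (a median of -0.4), after quantile normalization 0 were lower and 1 higher, and after centring 1 was lower. Both lists had 0 calls by limma without either untransfected array. Without any 1 AML1-ETO array the mitosis, S phase, oxidative phosphorylation and proteasome lists had at most 3 lower calls each. Of 50 splicing factors 5 were called lower and 1 higher, and 1 each way under the other scalings, with 0 higher and 1 lower without either untransfected array. SF1, a branch point binding protein, was the steadiest of these, with 228, 243 and 227 against 571 and 567 (-1.29 ± 0.15, SE, limma, adjusted p = 0.00063). CDK4, the kinase of G1 phase, read 340, 349 and 338 against 692 and 655, on the list of ribosome biogenesis and MYC targets, of which 3 of 38 were called lower and 2 under either other scaling. Cytosolic ribosomal protein genes had a median of 0.3, with 44 of 49 above 0 and 0 called by limma. That median was 0.03 after quantile normalization and 0.48 after centring. Mitochondrial ribosomal protein genes had a median of -0.3 with 0 of 42 called by limma.

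Inflammatory, stress and cell death genes moved in few members. Besides CXCL8, CXCL1 (21.9, 26 and 23.3 against 34.1 and 46.6), CCL5 (122, 128 and 123 against 184 and 198) and IRAK3 were called lower of 17 tested cytokine and chemokine genes, and IL1A was called higher (37.3, 50.4 and 37.9 against 23.2 and 24.5). After quantile normalization 0 of the list were higher and 3 lower, and after centring 2 and 2. CXCL8 alone of these 5 kept its call without untransfected replicate 1 or 3. Of 20 interferon response genes LY6E (-0.97) and IFITM3 (-0.98) were called lower and 0 higher by limma, with 1 higher after centring, and 0 and 1 lower without untransfected replicates 1 and 3. JUND and DUSP6 were called lower and ZFP36L2 higher of 28 immediate early genes, with 1 lower after quantile normalization and 0 lower without either untransfected array. ZFP36L2, an RNA-binding protein of mRNA decay, was 0.75 with AML1-ETO siRNA and -0.46 after luciferase nucleofection. The difference between the 2 siRNAs for ZFP36L2 was 1.2 (limma, adjusted p = 0.0024). BCL2, the inhibitor of apoptosis, read 122, 146 and 148 against 53.1 and 63.2, and TNFRSF10B, a receptor of the death ligand TRAIL, 92.1, 102 and 86.5 against 31.3 and 41.4. Both were also called higher after luciferase nucleofection, by 0.89 and 1.41, and neither difference between the 2 siRNAs was called (limma, adjusted p = 0.421 and 0.965). PMAIP1, the BH3-only protein NOXA, was called lower (-0.88), and 2 of 23 apoptosis regulators were called higher and 1 lower in all, with 0 lower under both other scalings. Of 19 p53 targets and cell cycle inhibitors 1 was called higher, TNFRSF10B, and 3 lower, CDKN2A, CCNG1 and PMAIP1, of which 1 under either other scaling and 1 without either untransfected array. The other 2 tested probe sets were not called for BCL2 (0.13 and 0.21) or for TNFRSF10B (0.14 and 0.79). BCL2 and TNFRSF10B lost their calls without untransfected replicate 1 and kept them without replicate 3. BHLHE40, a circadian and hypoxia-responsive repressor, read 80.7, 100 and 81.6 against 32.4 and 33 (1.41, limma, adjusted p = 0.00219), and kept its call under all 22 alternatives.

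Cytoskeletal, adhesion and other stress genes gave few calls. Of 39 actin genes CAPG was called higher and ENAH, FSCN1 and WAS lower, with 2 each way under both other scalings and 0 and 1 lower without untransfected replicates 1 and 3. FSCN1, the bundling protein fascin, read 34.1, 37.9 and 23.9 against 65.1 and 70.9, with 82.4 and 85.2 after luciferase nucleofection, and differed between the 2 siRNAs by -1.42 (limma, adjusted p = 0.00313). Of 29 adhesion genes SELPLG and ALCAM were called higher and ITGAE, an integrin chain, lower, with 3 higher and 0 lower under both other scalings, and 0 were called by limma without untransfected replicate 3. The brightest of 6 probe sets of CD24, a small surface glycoprotein, was not called against untransfected cells as deposited (447, 439 and 471 against 340 and 204, limma, adjusted p = 0.0605) and was called under both other scalings. The other 5 CD24 probe sets differed by 0.58 to 0.95, and 2 of them were called higher. The brightest read 53.6 and 55.9 after luciferase nucleofection, 3.05 below the AML1-ETO siRNA level on the log2 scale (limma, adjusted p = 1.22e-05). Of 40 genes of the unfolded protein and amino acid stress responses, SLC7A5 was called higher and HYOU1, MANF and TRIB3 lower, and the lower calls were 0 under both other scalings and without either untransfected array, with 3 higher after centring. DNAJB6 was the 1 called of 28 chaperone genes (-0.9), and 0 were called by limma after centring or without either untransfected array. PRDX3, GSS and GPX1 were called lower of 30 oxidative stress genes, with 0 after quantile normalization, 1 after centring and 0 without either untransfected array. Of 37 genes of glycolysis and hypoxia, BHLHE40 was called higher and EGLN1 lower, with 0 lower under both other scalings and 2 higher after centring.

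Genes of other lineages gave single calls. NKG7, a granule protein of natural killer cells and T cells, read 52.2, 55.2 and 54.2 against 1.26 and 1.3, which is at least 2.69-fold higher. It was under the floor in both luciferase nucleofection arrays, so that the difference between the 2 siRNAs was at least 1.43 on the log2 scale (limma, adjusted p = 0.00201). NKG7 exceeded the floor only on arrays with AML1-ETO siRNA, so it passed the brightness filter through the groups where it is high. The call of NKG7 held in each of the 19 alternatives where it had a value, among them the fit without that filter. It had no value in the remaining alternatives. CD4, a coreceptor also present on myeloid cells, read 236, 256 and 206 against 472 and 610, and was -1.32 after luciferase nucleofection. TFRC, the transferrin receptor, was the only erythroid or megakaryocytic gene called of 15 tested (-0.69), and it was called under neither other scaling. EPCAM, an epithelial adhesion molecule, read 120, 155 and 131 against 267 and 218, and ACTA2, a smooth muscle actin, 55.1, 50.1 and 48.9 against 31.5 and 17.1. EPCAM (-1.44) and ACTA2 (0.87) were also called after luciferase nucleofection, and EPCAM was not called after quantile normalization. EPCAM and TFRC lost their calls without either untransfected array, and ACTA2 and CD4 lost theirs without untransfected replicate 3. None of the 11 genes of the siRNA machinery, 29 of pentose phosphate and nucleotide synthesis, 11 histones or 5 mast cell, eosinophil and basophil genes was called by limma.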

How the data were processed

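Expression was measured on 14 Affymetrix arrays of Kasumi-1 cells in 6 groups, of which 5 arrays form the comparison. The authors deposited MAS5 signals, which are intensities that each array's scale factor had brought to a common mean, per the submitters' processing notes and the labels. Depth has no meaning for arrays, and their number limits the precision. Signals were raised to a floor of 20 and put on the log2 scale. limma 3.58.1 in R 4.3.3 fitted the 6 group means over all 14 arrays, which share 1 estimate of the spread, on the upper 60% of non-control probe sets by mean. The fit was tested on simulated data. Adjusted p-values are Benjamini-Hochberg over all probe sets tested, and RUNX1T1 was read from the fit without that filter. Tables were made in Python 3.11.15 (numpy 2.4.6, pandas 2.3.3), and plots with matplotlib 3.10.9.

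Of 22283 probe sets, 68 were controls, 19065 carried a single gene symbol, 1043 more than that and 2107 no symbol. Named genes were all RUNX1T1 probe sets, the 20 highest and 20 lowest differences of called genes without overlap between arrays, and in each list up to 4 called members with the smallest p, or up to 2 where fewer than 2 were called. Where a list's further called members, or members under the threshold, are named, they were added after their values were seen. The members and lists were chosen with earlier results of these data known. Alternatives changed the scaling, floor, filter, variance model, covariates, controls and arrays included.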

Additional observations from a re-analysis of the deposited data

Results flagged for a closer look

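The signal on ribosomal RNA control probe sets differed between groups in data outside the main measurement. It was 1.98 higher on the log2 scale with AML1-ETO siRNA by nucleofection than in untransfected cells, and the 3 and 2 arrays did not overlap (exact two-sided permutation test, p = 0.2, where the smallest possible is 0.1).

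Among the 20 highest genes, 4 were called higher with AML1-ETO siRNA and lower with luciferase siRNA by nucleofection, each against untransfected cells. The difference between the 2 siRNAs was called by limma for each of the 4. These differences were 3.76 for CTSG, 3.00 for SRGN, 2.94 for CST7 and 2.82 for IGFBP7 on the log2 scale. All 4 genes kept their net call in each of 22 alternatives. Other genes, among them RNASE2 and LAPTM5, lay on opposite sides with a called difference between the siRNAs but no call after luciferase nucleofection.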

How the results depend on the processing

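The counts of 835 probe sets and 483 genes depended on the arrays and on the variance model. Letting the variance follow intensity gave 1310 probe sets and 794 genes, and 1314 and 796 with a robust fit. A floor of 64 gave 762 genes, although 8 of the 20 highest and 7 of the 20 lowest genes lost their calls with it. Fitting only nucleofection and untransfected arrays gave 320 and 186, the 5 arrays alone 158 and 88, the scale factor as a covariate 299 and 174, and the array without siRNA added to the controls 143 and 77. The ribosomal RNA level as a covariate, an alternative chosen after seeing the data, gave 137 and 83. Leaving out 1 array gave 146 to 614 probe sets and 86 to 349 genes. Of the 142 single genes named, 0 changed sign in any alternative and 20 kept their call in all, with 92 calls lost without untransfected replicate 1 and 91 without untransfected replicate 3. Fewer arrays leave fewer degrees of freedom, and otherwise the cause was not tested.

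RUNX1T1 was no longer called on 205528_s_at with only nucleofection and untransfected arrays or the 5 arrays (-1.09 in both) or with the ribosomal RNA covariate (-0.83), and ranged from -1.23 to -0.95 without 1 array. On 205529_s_at the values were -0.92 in both, -0.64, and -0.76 with the scale factor, with a range of -1.06 to -0.79. On RUNX1T1 probe set 216831_s_at a floor of 64, above all of its signals but 1, gave -0.05, and leaving out arrays gave -1.78 to -1.44. The uncalled 216832_at changed sign with the ribosomal RNA covariate (0.03) and ranged from -0.49 to -0.28 without 1 array.

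The replicate number as a block gave 478 probe sets and 271 genes. Same-numbered arrays correlated at 0.02 and 0.02 in their deviations from the group means, so that the numbers do not show a pairing.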

Other observations

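Beside 205557_at, the probe sets 201136_at and 206851_at, which had no gene symbol, differed by more than 2 on the log2 scale. 201136_at read 111, 109 and 105 with AML1-ETO siRNA by nucleofection, 13.7 and 18.5 in untransfected cells, 63.9 and 66.1 after luciferase nucleofection and 83.4 without siRNA. All nucleofected arrays of 201136_at were thus above the untransfected ones. 206851_at read 185, 201 and 232 against 31.3 and 59.5, with 50.2 and 16.8 after luciferase nucleofection and 14.1 without siRNA, so that it was high with the AML1-ETO siRNA alone among the nucleofected groups.

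Where a gene had several tested probe sets, calls did not point both ways. Of 632 genes with a called probe set, 322 had several tested, 66 had 2 or more called and 0 had calls in both directions by limma. RET, a receptor tyrosine kinase, had 3 of 3 probe sets called lower, from -1.48 to -1, and AIF1 had 3 of 4 called higher, from 1.19 to 2.13.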
